A study of Homo sapiens with 6 samples.

Results

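A set of 10 genes for RNA-binding regulators of neuronal splicing was followed in human SH-SY5Y neuroblastoma cells after knockdown of PSF, a nuclear RNA-binding protein encoded by SFPQ. They are SRRM4 and SRRM3 (microexon regulators), RBFOX2, NOVA1 and NOVA2, the neuronal Hu genes ELAVL2, ELAVL3 and ELAVL4, and the polypyrimidine tract-binding genes PTBP1 and PTBP2. All 10 were found by gene symbol among the 21301 genes of the deposited table, and all 10 passed the filter on low counts, as did 19694 genes in all. The set was selected on these same libraries: SRRM4 was picked by the study from these libraries, and the list around it was put together with results of this comparison known. The differences of these 10 genes between the groups are therefore given as a description, with no p-value, and support nothing by themselves.

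Cells were treated for 72 h with a control siRNA (siControl) or with an siRNA against PSF (siPSF), both at 10 nM, and each group held 3 libraries of poly(A) RNA. The study calls them biological triplicates, with 1 siRNA sequence against PSF in 1 cell line and no further allele or agent in either group. The labels do not say that they came from separate cultures, so p-values measure the spread between these libraries. Counts per library summed to between 101540520 and 132420931. Levels are given as CPM, counts scaled by library total and TMM factor, for use between libraries, or as the deposited FPKM, which also divides by exon length and compares genes.

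SRRM4 and its paralogue SRRM3 promote the inclusion of microexons, very short exons used mainly in neurons. NOVA and RBFOX proteins bind short RNA motifs beside alternative exons and, depending on where they bind, raise or lower exon inclusion. Neuronal ELAVL proteins bind U-rich RNA in introns and 3′ untranslated regions and act on splicing, mRNA stability and translation. PTBP1 represses many neuronal exons outside the nervous system, and its paralogue PTBP2 takes over as neurons differentiate. The counts are per gene, so exon inclusion was not measured here.

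SFPQ, the targeted gene, stood at 372, 356 and 401 CPM in the siControl libraries and fell to 209, 193 and 165 CPM in the siPSF libraries (log2 fold change -0.99, edgeR adjusted p = 9.5e-05). Of the defining markers of noradrenergic neuroblasts, HAND2 (1180 CPM in siControl), PHOX2A (290 CPM) and GATA3 (400 CPM) were abundant and TH was near the floor (0.741 CPM). The 8 markers of this list summed to 4480 to 4890 CPM in siControl and 3990 to 4450 CPM in siPSF, with 2 called lower (DBH and TH) and 1 called higher (GATA3, which kept its call in 0 of 6 fits with 1 library left out). The lower sum came with DBH, the most abundant of them, at 1740 and 1080 CPM, while the median log2 fold change of the list was 0.04, with 4 of 8 below 0. The 7 tested of 8 markers of mesenchymal-type neuroblastoma cells summed to 82.7 to 88.3 CPM and 57.9 to 64.2 CPM, most of it FN1, which was called lower (78.7 and 52.0 CPM). The median log2 fold change of this list was 0.35, opposite to its sum, with 3 of 7 below 0. COL1A1 (0.55), CD44 (0.52, groups without overlap), SNAI2 (0.39) and YAP1 (0.35) had log2 fold changes above 0, were not called and stood at 3.2 CPM or less in siControl. PRRX1 of that list and the glial markers GFAP, MBP and AQP4 were not analysed here. The part of these marker shifts in the values of the splicing regulators was not tested, and fewer cells of a type and less RNA per cell cannot be told apart in bulk RNA.

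The microexon pair, in which 1 gene was far lower after siPSF and the other was not, is shown first by the sequence before each gene start. Both windows hold the 250 bases upstream of the RefSeq start on the plus strand of GRCh38.p14, at chr12:118981291-118981540 for SRRM4 and chr7:76201646-76201895 for SRRM3, printed 5′ to 3′ with each CG dinucleotide in capitals.
SRRM4: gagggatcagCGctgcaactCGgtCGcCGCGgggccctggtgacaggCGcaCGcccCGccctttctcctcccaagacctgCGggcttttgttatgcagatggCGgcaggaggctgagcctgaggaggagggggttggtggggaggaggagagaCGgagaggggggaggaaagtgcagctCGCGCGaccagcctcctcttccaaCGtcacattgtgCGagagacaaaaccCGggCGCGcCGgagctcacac
SRRM3: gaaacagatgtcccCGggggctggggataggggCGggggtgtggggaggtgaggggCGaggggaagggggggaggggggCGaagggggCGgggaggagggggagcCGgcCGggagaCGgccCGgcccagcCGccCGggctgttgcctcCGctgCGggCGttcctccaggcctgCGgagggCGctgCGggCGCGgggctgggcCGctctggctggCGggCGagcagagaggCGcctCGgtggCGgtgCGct
The SRRM4 window held 20 CG dinucleotides and the SRRM3 window 26, against a median of 11 over the windows of 27305 genes, and 67.9% and 80.8% of those genes had fewer. The GC content was 66.4% for SRRM4 and 79.2% for SRRM3. The letters TTCAGCACC, the left part of the site bound by the neuronal repressor REST, were searched on both strands, stood in neither window and were present in 0.300% of all windows. These are properties of the reference sequence, and neither promoter use nor binding was measured.

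SRRM4 (gene ID 84530; chromosome 12 of GRCh38 from 118981541 to 119163051) had the largest difference of the 10 genes. The siControl libraries 1, 2 and 3 held 29.6, 36.2 and 36.5 CPM, and the siPSF libraries 11.4, 12.2 and 8.66 CPM. The highest siPSF library thus lay below the lowest siControl library by a wide margin. Its level after siPSF was 31.5% of that in siControl, a log2 fold change of -1.66 (standard error 0.14) that ranked 117 from the lowest of the 19694 genes tested. In raw counts SRRM4 had 3601 to 4827 reads in siControl and 854 to 1350 in siPSF.

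SRRM3 (gene ID 222183; chromosome 7 from 76201896 to 76287287), the other microexon regulator, was not lower on counts. It stood at 65.4, 63.3 and 54.1 CPM in siControl and at 64.4, 66.3 and 73.4 CPM in siPSF. The groups overlapped, and the log2 fold change was 0.16 (standard error 0.10) on counts and -0.03 on FPKM set to an equal sum in each library. Set against each other per length, SRRM4 was at 19.6%, 24.8% and 29.2% of the FPKM of SRRM3 in the siControl libraries and at 7.62%, 7.96% and 5.10% in the siPSF libraries. SRRM3 was therefore the more abundant of the pair in every library, and its lead was larger after siPSF.

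**Figure D1:**
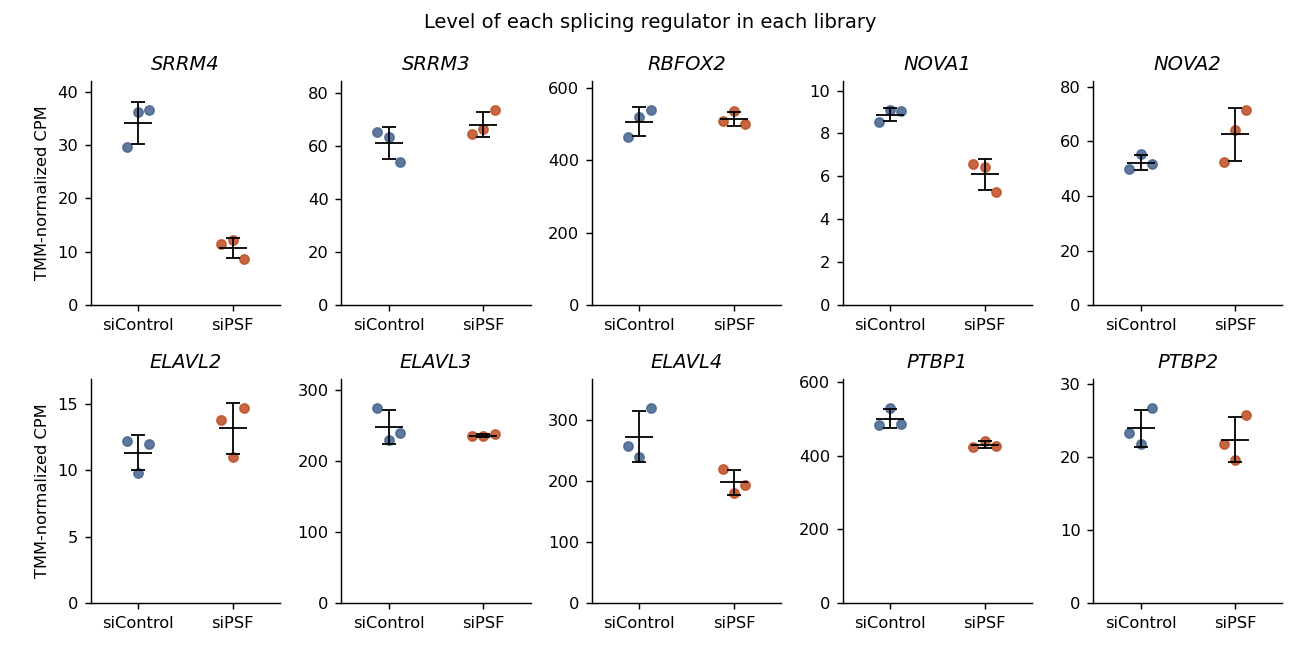
TMM-normalized CPM of each of the 10 genes in the 3 siControl (blue) and 3 siPSF (orange) libraries, with the mean and SD as black bars; each panel has its own axis from 0. SRRM4, NOVA1, ELAVL4 and PTBP1 have all siPSF points under the siControl points, and the groups of the other 6 genes overlap.

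NOVA1 and NOVA2 are KH-domain splicing regulators, of which NOVA1 was lower after siPSF. NOVA1 (gene ID 4857; chromosome 14 from 26443090 to 26598033) was at 8.52, 9.08 and 9.03 CPM in siControl and at 6.57, 6.46 and 5.25 CPM in siPSF. Its siPSF values were all under the lowest siControl value (log2 fold change -0.54, standard error 0.13). NOVA2 (gene ID 4858; chromosome 19 from 45933734 to 45973865) was at 49.8, 55.3 and 51.6 CPM in siControl and at 52.3, 64.0 and 71.4 CPM in siPSF. Its groups overlapped through siPSF library 1, and the log2 fold change was 0.26 (standard error 0.11), or 0.37 without that library. In FPKM, NOVA1 was at 22.2 ± 0.464% of NOVA2 in siControl and 13.0 ± 3.18% in siPSF (SD, n = 3 each), and these ratios did not overlap.

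Of the neuronal Hu genes, ELAVL4 was lower after siPSF, and in CPM the groups of ELAVL2 and ELAVL3 overlapped. ELAVL4 (gene ID 1996; chromosome 1 from 50048055 to 50203772) stood at 258, 240 and 320 CPM in siControl and at 220, 180 and 193 CPM in siPSF. The groups did not overlap, the nearest values being 220 and 240 CPM, and the log2 fold change was -0.46 (standard error 0.11). ELAVL3 (gene ID 1995; chromosome 19 from 11451326 to 11481046) had 275, 230 and 240 CPM in siControl and 235, 235 and 238 CPM in siPSF. In CPM the siPSF libraries sat inside the siControl range (log2 fold change -0.07, standard error 0.09). In FPKM they lay below it, at 44.1, 43.4 and 44.1 against 53.4, 44.4 and 48.4 in siControl. ELAVL2 (gene ID 1993; chromosome 9 from 23690104 to 23850601) was far less abundant, at 12.2, 9.79 and 12 CPM in siControl and 13.8, 11 and 14.7 CPM in siPSF. Its groups overlapped (log2 fold change 0.22, standard error 0.14).

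PTBP1 (gene ID 5725; chromosome 19 from 797452 to 812312), the repressor of neuronal exons, was at 484, 530 and 487 CPM in siControl and at 425, 441 and 426 CPM in siPSF. The groups did not overlap, yet the difference was small (log2 fold change -0.22, standard error 0.08). PTBP2 (gene ID 58155; chromosome 1 from 96721784 to 96823739) was at 23.3, 21.7 and 26.7 CPM in siControl and at 21.8, 19.6 and 25.7 CPM in siPSF. These values overlapped almost fully (log2 fold change -0.10, standard error 0.12). PTBP2 was at 4.79 ± 0.692% of PTBP1 in CPM in siControl and 5.20 ± 0.802% in siPSF (SD, n = 3 each), so the balance of the pair moved by less than its spread. RBFOX2 (gene ID 23543; chromosome 22 from 35738736 to 36028824), which binds beside alternative exons in many tissues, was at 463, 519 and 538 CPM in siControl and 509, 536 and 499 CPM in siPSF. The siPSF values lay within the siControl range (log2 fold change 0.02, standard error 0.09).

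In edgeR's quasi-likelihood test over all genes, 3 of the 10 genes, SRRM4, NOVA1 and ELAVL4, were called lower at an adjusted p under 0.05 and 0 were called higher. Among all genes tested, 8.27% were called lower, 6.65% higher and 14.9% in either direction. In CPM the groups did not overlap, with siPSF the lower, in 4 of the 10 genes and in 17.8% of all genes. With siPSF the higher, this held in 0 of the 10 and in 16.7% of all genes. Since the genes were chosen with this comparison known, nothing is read from these counts. The median log2 fold change of the 10 genes was -0.08, and that of all genes tested 0.01. Over the fits that each left out 1 library, SRRM4 was called in 6 of 6 and its log2 fold change stayed between -1.77 and -1.53. NOVA1 lost the call without siControl library 2, with a log2 fold change of -0.54 there. ELAVL4 lost it without siControl library 3 (log2 fold change -0.34) and without siPSF library 2 (-0.40). NOVA2 was called higher only without siPSF library 1.

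**Figure D2:**
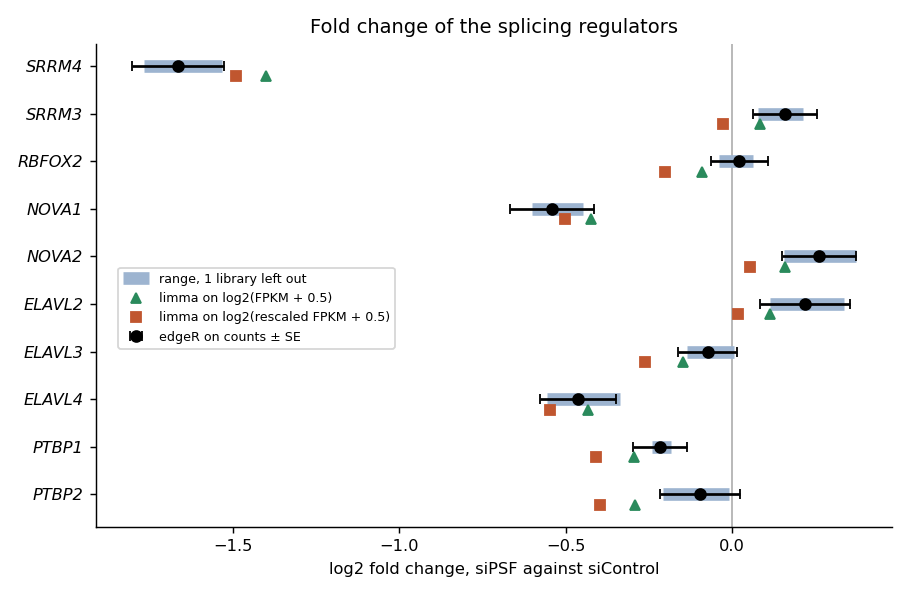
Log2 fold change of each gene, siPSF against siControl. Black points with bars are the edgeR fit on counts ± standard error, blue bands the range when 1 library is left out, and green triangles and orange squares the limma fits on FPKM and on rescaled FPKM; SRRM4 stands apart at -1.66, and SRRM3 and RBFOX2 lie on either side of 0 according to the scale.

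The scale of the values shifted all of these differences. With FPKM brought to an equal sum in each library (rescaled FPKM), the median of the 14827 genes in that limma fit was -0.16. It called 463 genes higher and 3409 lower, against 1310 and 1628 of 19694 genes by edgeR on counts. The test and the set of genes thus differed along with the scale. On that scale 5 of the 10 genes were called lower, PTBP1 (-0.41) and ELAVL3 (-0.26) in addition. PTBP1 was also called lower on FPKM that was not rescaled (-0.30), with either pseudocount and without the filter. On rescaled FPKM, RBFOX2 was at -0.20 and SRRM3 at -0.03. After subtraction of the median of -0.16 on that scale, SRRM4 was at -1.32, NOVA1 at -0.34 and ELAVL4 at -0.39. The same step put PTBP1 at -0.25, ELAVL3 at -0.10, RBFOX2 at -0.04 and SRRM3 at 0.13, and no separate test was run on these values.

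Ranked by FPKM in siControl, PTBP1 was the most abundant of the 10 genes per length, at 146 ± 6.31 FPKM (SD, n = 3). ELAVL4 (67.1 ± 11.7 FPKM) and RBFOX2 (62.2 ± 6.35 FPKM) followed, and their libraries overlapped, so that their order is not settled. ELAVL3 came next at 48.7 ± 4.52 FPKM, then SRRM3 at 15.5 ± 1.18 FPKM. NOVA2 (6.0 ± 0.313 FPKM) and PTBP2 (5.83 ± 0.296 FPKM) overlapped, and below them lay SRRM4 (3.77 ± 0.477 FPKM), ELAVL2 (2.73 ± 0.357 FPKM) and NOVA1 (1.33 ± 0.0650 FPKM), none of which overlapped its neighbours. In siPSF the order was kept except that RBFOX2 (58.3 FPKM) stood above ELAVL4 (49.3 FPKM) and ELAVL2 (3.01 FPKM) above SRRM4 (1.12 FPKM). SRRM4 thus moved from rank 8 to rank 9, next to NOVA1 at 0.865 FPKM.

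**Figure D3:**
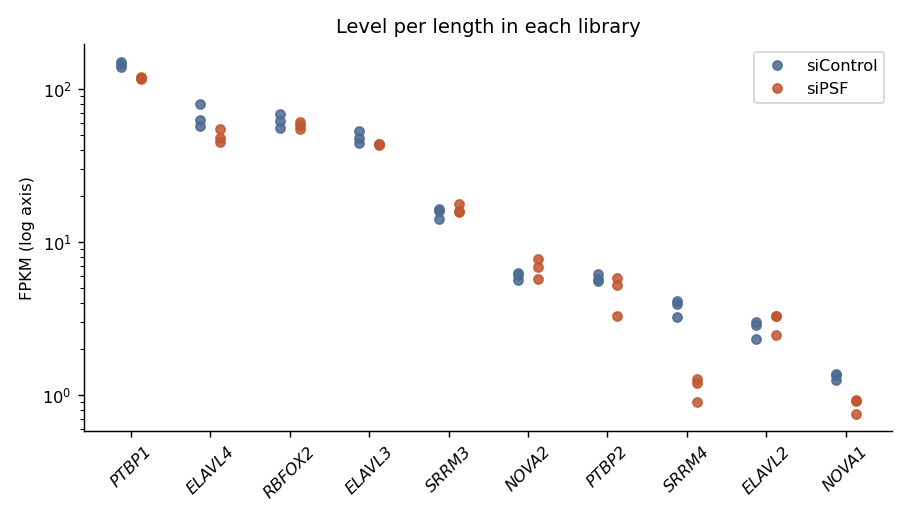
Deposited FPKM of the 10 genes in each siControl (blue) and siPSF (orange) library on a log axis, ordered by the siControl mean. PTBP1 is highest near 146 FPKM and NOVA1 lowest near 1.33 FPKM, and SRRM4 is the gene with the widest gap between the groups.

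FPKM and counts differed most in PTBP2. The length by which the counts were divided, read from the ratio of count to FPKM in each library and set to the gene's own median, varied by 1.01-fold or less between libraries in SRRM4, SRRM3, NOVA2, ELAVL3 and PTBP1. For PTBP2 it ranged from 0.905 in siControl library 2 to 1.35 in siPSF library 2, a highest value 1.49 times the lowest, and 99.2% of 13115 genes, each with 200 or more counts per library, varied less. PTBP2 was at 3.3 FPKM in siPSF library 2, beside 5.27 and 5.8 FPKM in libraries 1 and 3, while its CPM there was 19.6 beside 21.8 and 25.7. For ELAVL4 the relative length was 1.03, 1.03 and 1.04 in siControl and 0.975, 0.953 and 0.957 in siPSF, and the groups did not overlap. Whether transcript usage moves with these lengths was not tested.

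Gene length moved with the fold change across all protein-coding genes. Protein-coding genes under 10 kb had a median log2 fold change of 0.08 and those of 200 kb or more a median of -0.29. SRRM4 (181.5 kb), NOVA1 (154.9 kb), ELAVL2 (160.5 kb), ELAVL4 (155.7 kb) and PTBP2 (102.0 kb) fall in the class of 100 to 200 kb, whose 1637 genes had a median of -0.11 and of which 16.6% were called lower. Relative to that median SRRM4 was at -1.55, NOVA1 at -0.43, ELAVL4 at -0.35, PTBP2 at 0.02 and ELAVL2 at 0.33. RBFOX2, the longest at 290.1 kb, lay 0.31 above the median of its class. SRRM3 (85.39 kb) and NOVA2 (40.13 kb) lay 0.16 and 0.26 above the median of 30 to 100 kb genes. The short PTBP1 (14.86 kb) and ELAVL3 (29.72 kb) were at -0.28 and -0.13 relative to a class median of 0.06. The part of gene length in the SRRM4 value was not tested beyond this comparison.

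**Figure D4:**
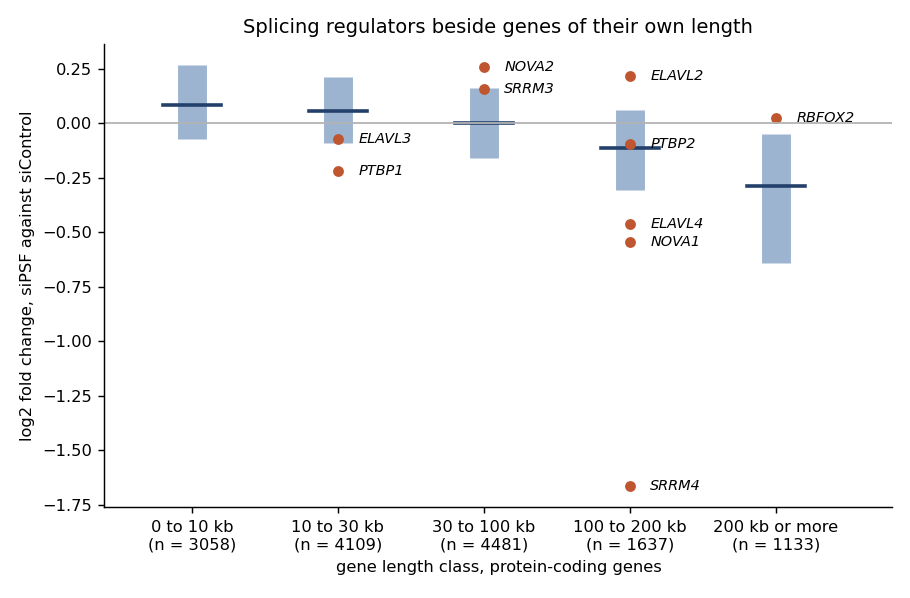
Log2 fold change of the 10 genes (orange points) over the median (dark line) and interquartile range (blue bar) of protein-coding genes of the same length class. SRRM4 lies 1.55 below the median of genes of 100 to 200 kb, while ELAVL2 of the same class lies 0.33 above it.

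Across the 6 libraries, the protein-coding genes with at least 10 CPM whose log2 CPM most resembled that of SRRM4 were WDR27, SLC20A2, SORCS1, PTPRM and XKR5, with Pearson's r from 0.9955 to 0.9985 among 10016 genes compared. All share the 2-group pattern, and r over 6 libraries in 2 groups mostly reflects it. SORCS1, a VPS10-domain sorting receptor, went from 173 ± 8.09 to 74.4 ± 9.32 CPM, and SLC20A2, a phosphate transporter, from 29.5 ± 1.36 to 14.4 ± 1.29 CPM (SD, n = 3 each). Within the set, NOVA1 (r = 0.982), PTBP1 (0.937) and ELAVL4 (0.832) resembled SRRM4 most.

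The remaining paralogues and partners of these families, which were not in the selected set, were tested in the same fit. This list and the lists in the paragraphs below were also chosen with earlier results of these data known. The p-values and calls of their genes are therefore given as a description and support nothing by themselves. Of the 9 genes RBFOX1, RBFOX3, ELAVL1, PTBP3, SRRM1, SRRM2, RAVER1, RAVER2 and MATR3, 0 were called in either direction by edgeR at an adjusted p under 0.05, and 2, ELAVL1 and MATR3, had an unadjusted p under it. DESeq2's Wald test called 1, ELAVL1 (adjusted p = 0.046). The limma fits on FPKM called ELAVL1 lower in 4 of 4 (adjusted p from 0.0086 to 0.041), SRRM2 lower in 3 (0.0086 to 0.039) and SRRM1 lower after rescaling only (0.034). MATR3 was called higher by edgeR without siControl library 3 (adjusted p = 0.047) and without siPSF library 3 (0.027), and ELAVL1 lower without the latter (0.0097). ELAVL1, the ubiquitous Hu protein gene, had 211, 203 and 209 CPM in siControl against 166, 157 and 195 CPM in siPSF, without overlap (log2 fold change -0.27, adjusted p = 0.072). MATR3, which encodes the nuclear matrix protein and PTBP1 partner matrin-3, was at 186 ± 24.4 and 230 ± 26.7 CPM (log2 fold change 0.31, adjusted p = 0.082). SRRM2, a large scaffold of nuclear speckles, was at 777 ± 18.7 and 681 ± 69.3 CPM (log2 fold change -0.19, adjusted p = 0.19). RBFOX1 at 1.37 ± 0.289 CPM and RBFOX3 at 0.238 ± 0.0622 CPM in siControl were close to the floor, so that RBFOX2 carried nearly all RBFOX counts in these cells. The log2 fold changes were -0.45 for RBFOX1 (adjusted p = 0.20), 0.58 for RBFOX3 (0.45), -0.02 for PTBP3 (0.93), -0.06 for SRRM1 (0.63), 0.01 for RAVER1 (0.96) and -0.06 for RAVER2 (0.73), the last 2 being partners of PTB.

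Of 22 other regulators of tissue-specific splicing that were tested, 3 fell and 1 rose, beside 8.27% and 6.65% of all genes. The median length of this list was 69.4 kb, and 6.65% of protein-coding genes of 30 to 100 kb were called lower. CELF4 (323.0 kb), QKI (163.9 kb) and RBPMS (187.7 kb), which fell, are longer. Called lower were 16.6% of protein-coding genes of 100 to 200 kb and 37.4% of those of 200 kb or more. The part of length in these 3 calls was not tested. CELF4, a brain CELF protein gene, fell from 24.5 ± 1.83 to 18.0 ± 2.62 CPM (log2 fold change -0.44, adjusted p = 0.028), and QKI, a STAR-family regulator, from 59.4 ± 10.8 to 44.3 ± 3.52 CPM (-0.42, adjusted p = 0.036). RBPMS fell from 2.63 ± 0.204 to 1.84 ± 0.0960 CPM, barely past the threshold (log2 fold change -0.51, adjusted p = 0.050). ESRP1, an epithelial splicing regulator, rose by 1.41 on the log2 scale from only 0.321 ± 0.130 CPM (adjusted p = 0.027). REST, the repressor of neuronal genes in non-neural cells and itself spliced under SRRM4, was at 25.3 ± 2.39 and 22.2 ± 1.87 CPM (log2 fold change -0.19, adjusted p = 0.26; named after its value was seen), and 0 of the 5 genes of REST and its cofactors were called by edgeR, with 2, RCOR1 and RCOR2, at an unadjusted p under 0.05.

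Genes whose transcripts these factors are known to process were listed for each family, 80 in all without the 10 regulators, of which 76 were tested. In edgeR's test 16 fell and 3 rose, beside 8.27% and 6.65% of all genes tested. The median log2 fold change was -0.13, against 0.01 over all genes tested. The median length of the 76 was 124 kb, against 22.1 kb for all genes tested. Of protein-coding genes of 100 to 200 kb, 16.6% were called lower and 2.87% higher, with a median of -0.11. Of those of 200 kb or more, 37.4% were called lower and 2.38% higher, with a median of -0.29. The part of length in this count was not tested. Gene counts say how much RNA of a target was present, not how it was spliced.

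Of 30 genes with microexons or neural exons under SRRM4 and related factors, 5 fell and 0 rose, with a median of -0.15. Over all genes tested, 8.27% were called lower and 6.65% higher. The median length of this list was 177 kb, and 16.6% of protein-coding genes of 100 to 200 kb were called lower, with a median of -0.11. Of those of 200 kb or more, 37.4% were called lower, with a median of -0.29. The part of length in this count was not tested. ANK2, the neuronal ankyrin-B gene, fell from 129 ± 8.02 to 51.6 ± 11.2 CPM (log2 fold change -1.33, adjusted p = 1.2e-04), and KIF1B, a kinesin gene, from 193 ± 9.80 to 132 ± 8.35 CPM (-0.54, adjusted p = 0.0014). NBEA (-0.57, adjusted p = 0.010), the receptor phosphatase gene PTPRD (-0.87, adjusted p = 0.014) and RAPGEF6 (-0.47, adjusted p = 0.016) also fell. ANK2 (678.1 kb), NBEA (730.5 kb), PTPRD (2299 kb) and RAPGEF6 (211.3 kb) belong to the class of 200 kb or more, and KIF1B (171.0 kb) does not.

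The counts that follow stand beside 8.27% of all genes called lower and 6.65% called higher. Median lengths of the NOVA, RBFOX, ELAVL and PTB targets were 250, 183, 10.9 and 61.4 kb. Called lower were 37.4% of protein-coding genes of 200 kb or more and 16.6% of those of 100 to 200 kb. The shares were 6.65% at 30 to 100 kb and 3.7% at 10 to 30 kb. The part of length in these counts was not tested. Among 10 tested NOVA targets 2 fell and 0 rose: NEO1, the neogenin receptor gene, from 165 ± 6.92 to 114 ± 12.5 CPM (log2 fold change -0.53, adjusted p = 0.0027), and NTNG1, a netrin-G gene, by 0.55 on the log2 scale (adjusted p = 0.024). Among 13 RBFOX targets other than PTBP2, 4 fell and 2 rose. The calcium channel gene CACNA1C fell from 15.1 ± 0.693 to 7.95 ± 2.30 CPM (log2 fold change -0.92, adjusted p = 0.0053), with NFASC (-0.43, adjusted p = 0.015) and ATXN1 (-0.83, adjusted p = 0.030). GRIN1, the obligatory NMDA receptor subunit gene, rose from 13.6 ± 2.41 to 26.0 ± 1.55 CPM (0.93, adjusted p = 6.4e-04), and CAMK2A rose by 1.25 on the log2 scale from 0.387 ± 0.0762 CPM (adjusted p = 0.013). Of 13 ELAVL targets, NF1 (-0.50, adjusted p = 0.0067) and MAPT (-0.43, adjusted p = 0.036) fell and 0 rose. With 1 library left out, NF1 kept its call in 6 of 6 fits and MAPT in 1 of 6. Of 15 PTB targets other than PTBP2, 4 fell, among them TPM1 (-0.48, adjusted p = 0.018), CADM1 (-0.39, adjusted p = 0.018) and NUMB (-0.31, adjusted p = 0.043), which is also an RBFOX target, and 1 rose, CLTA, a clathrin light chain gene (0.32, adjusted p = 0.029).

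**Figure D5:**
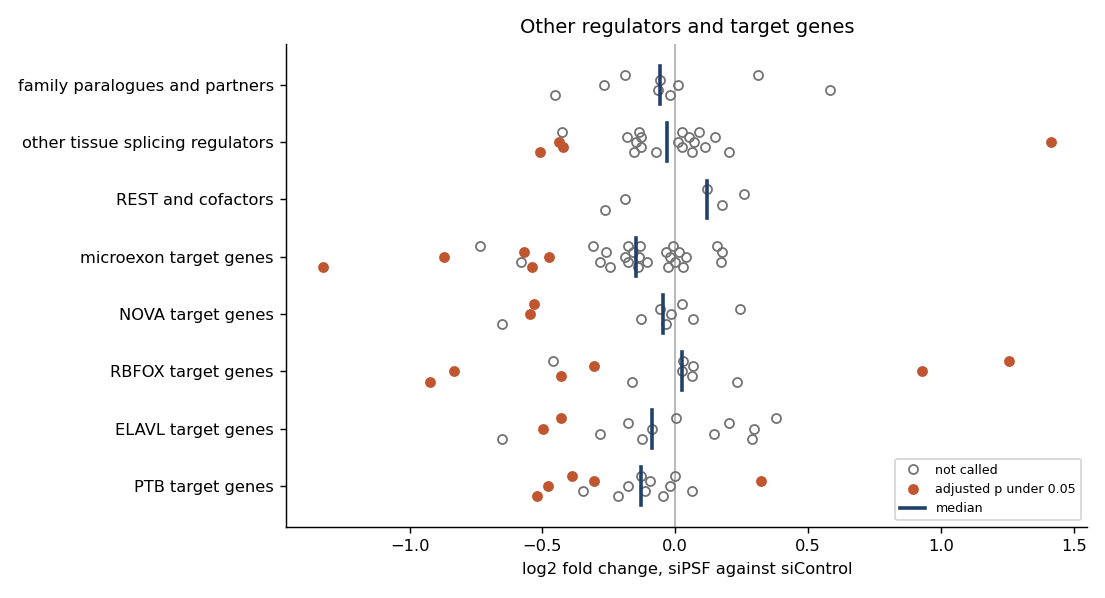
Log2 fold change, siPSF against siControl, of the genes of each list without the 10 selected regulators. Filled points passed an adjusted p of 0.05 in edgeR's test, open points did not, and the vertical line is the median of the list; ANK2 is the lowest point at -1.33 and ESRP1 the highest at 1.41.

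Of these 23 calls over all lists, 19 lower and 4 higher, 7 were made in every fit that left out 1 library, among them those of KIF1B, ANK2, NEO1, CACNA1C, GRIN1 and NF1. MAPT, NUMB and RBPMS kept their calls in only 1 of these 6 fits, and CELF4, QKI, ATXN1, CADM1 and CLTA in 2. Leaving out siControl library 3 kept 7 of the 23, and leaving out siControl library 2 kept 12.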

How the data were processed

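In the table that the authors deposited, each gene has raw read counts and FPKM for the 6 libraries. For the making of both, the paper's methods name poly(A) selection, 50 bp paired-end reads, rRNA removal with Bowtie 2, mapping to hg38 with TopHat and counting on RefSeq; the submitters' processing notes list Trimmomatic, HISAT2 2.1.0 and StringTie 2.1.3b on GRCh38 instead, and which of these made the table was not settled. The smallest count in the table is 1. The labels name a stranded kit, while the paper's methods name the TruSeq RNA Library Preparation Kit v2 and do not mention strand. Which kit was used was not settled, and use of strand in counting is not given in the sources used here. In GENCODE, exons of 1 gene on the opposite strand overlap SRRM4 and none overlap the other 9 genes. Of 50-base windows in their transcripts, 4.33% in ELAVL3, 0.581% in PTBP2, 0.155% in SRRM4 and 0 in the other 7 genes recur in another gene.

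Counts were filtered with edgeR's filterByExpr (19694 of 21301 genes), normalized by TMM and entered into edgeR's quasi-likelihood test with group as the only term, p-values being adjusted over every gene tested (Benjamini-Hochberg); SE is the log2 fold change over the root of F. The common biological coefficient of variation was 12.6%. Alternatives were each library left out, the block, DESeq2 size factors, no filter, DESeq2's Wald test and limma on log2(FPKM + 0.5) or log2(FPKM + 0.1), limited to a mean FPKM of 0.5 or unfiltered, and on rescaled FPKM. In simulated data, edgeR called 26.3% of genes changed by 0.5 on the log2 scale and 75.8% of those changed by 1, and 15 unchanged genes. A gene without a call can therefore still have changed by such sizes. Positions and lengths come from RefSeq GRCh38.p14 (97.8% of gene IDs matched), and promoter windows were found for 8 of the 10 genes. The planned protein alignment was not run, since no protein table was used here. Fits used DESeq2 1.42.0, limma 3.58.1 and edgeR 4.0.16 under R 4.3.3, and tables were joined with pandas 2.3.3 in Python 3.11.15. The 10 genes and the lists were chosen with earlier results of these data known. Named were the 10 genes, SFPQ, the paralogues, up to 5 called genes with the smallest p per list, and the 5 genes most like SRRM4 over the 6 libraries; cell type markers and REST were added. A few genes of the lists are counted but not reported here by name.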

Additional observations from a re-analysis of the deposited data

How the results depend on the processing

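The call of SRRM4 and its direction held in every alternative fit, with log2 fold changes from -1.77 to -1.4. After subtraction of the median on rescaled FPKM, where no separate test was run, SRRM4 was at -1.32. NOVA1, ELAVL4 and PTBP1 stayed lower in every alternative tried. Leaving out 1 library gave 572 to 1405 higher and 928 to 1735 lower calls over all genes, 1 to 6 and 6 to 21 over the pathway lists, and 0 to 1 higher call among the 10 regulators. The same fits gave -0.0384 to 0.0649 for RBFOX2, -0.136 to 0.00662 for ELAVL3, -0.0974 to 0.122 for PTBP3, -0.0444 to 0.0525 for RAVER1 and -0.107 to 0.0202 for RAVER2. On FPKM, limma called 736 genes higher with an added 0.5, 737 with 0.1, 634 without the filter and 463 after rescaling, where 3409 were lower; over the pathway lists these fits called 2, 2, 1 and 1 genes higher, 11 lower without the filter and 39 lower after rescaling, and 5 of the 10 regulators lower after rescaling. RBFOX2 was at -0.0884 with an added 0.5, filtered or not, at -0.0889 with 0.1 and at -0.202 after rescaling. It was at -0.0411 after also subtracting the median of the genes in the rescaled fit, a step chosen after the data were seen. SRRM3 was at -0.0274 after rescaling and at 0.133 after that subtraction. RAVER1 was at -0.000729 with DESeq2's Wald test, -0.0661 on FPKM with 0.5, filtered or not, -0.067 with 0.1 and -0.179 after rescaling. The causes were not tested. The replicate block gave 1389 higher and 1640 lower calls, kept the 3 calls among the regulators and 22 of 23 in the lists, and lost RBPMS. ELAVL4 also lost its call on FPKM without the filter (-0.43). Same-numbered libraries had correlations of deviations of -0.014, 0.296 and 0.114 over 14679 genes, and not every library correlated best with its own number, so the numbers were not taken as pairs. The order of the 10 levels was the same in all 45 pairs of genes with TMM-scaled counts per length. Depth limits RBFOX3, ESRP1 and CAMK2A, all under 1 CPM in siControl.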
